A study of Homo sapiens with 12 samples.

Results

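The mitochondrial ribosomal protein genes are nuclear genes for the protein parts of the ribosome inside mitochondria. They were taken here as every gene whose symbol is MRPL or MRPS followed by a number and at most 1 letter from A to C. This rule found 78 of the 60660 genes in the files, 49 named MRPL after the large subunit and 29 named MRPS after the small subunit, and it used no measured value. All 78 passed the filter on low values, a level of at least 1 TPM in at least 2 libraries, as did 16842 genes in all. TPM is a length-normalised share of a library's RNA, with an equal total in every library, so that levels can be compared between genes, but a smaller amount per cell and a smaller share of the cells cannot be told apart.

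The mitochondrial ribosome makes the few respiratory chain proteins that the mitochondrial genome encodes. Its ribosomal RNAs come from the mitochondrial genome, whereas its proteins are encoded in the nucleus, made in the cytosol and imported. Many of these proteins descend from bacterial ribosomal proteins, and others were added in the course of mitochondrial evolution and have no bacterial counterpart.

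RNA was measured in 3 derivatives of Kelly, an established human neuroblastoma cell line with an amplified MYCN gene. Doxycycline switches on a short hairpin RNA (shRNA) in each of them, directed against RCOR1 (the shRCOR1 line), against RCOR2 (the shRCOR2 line) or against no gene (the shCTRL line). RCOR1 and RCOR2 encode scaffold proteins of a complex that joins a histone demethylase to histone deacetylases. Every line was studied untreated and with 2 µg/mL doxycycline (induced), in 2 libraries per group, 6 groups and 12 libraries in all. The time label reads 72 h for all samples, untreated ones included, while the treatment protocol gives 24 or 48 h. Doxycycline is a tetracycline antibiotic, a class that blocks bacterial ribosomes and is known to slow protein synthesis on mitochondrial ribosomes too, and only induced cells received it. Within a line, the drug and the shRNA therefore cannot be told apart, and the shCTRL line shows the drug together with a control shRNA. Nothing in the labels used here says whether a line is 1 clone or whether replicates came from separate cultures, so p-values measure only the spread between these samples.

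Judged by coverage per FPKM, depth varied 2.14-fold over the libraries. RCOR2 fell in its own line (log2 change −1.42 ± 0.11 SE, limma adjusted p = 0.000403) and also in the shRCOR1 line (−0.94 ± 0.11, limma adjusted p = 0.00278), and RCOR1 fell in its own line (−0.71 ± 0.12, limma adjusted p = 0.0109). The 10 adrenergic neuroblastoma markers summed to 5029 to 9501 TPM. In the shRCOR1 line 4 of them fell, against 8.62% of all tested genes called. In the shRCOR2 line 3 fell and 1 rose, against 14.3%. In the same fit 0 of them differed from the shCTRL change in either line. With the replicate number as a block, 3 were lower in the shRCOR1 line and 2 in the shRCOR2 line. In shCTRL cells the sum went from 9041 and 7610 TPM to 8333 and 5904 TPM. The part of these shifts in the members' values was not tested. The 5 leukocyte markers summed to at most 0.801 TPM, and PECAM1, CD3E and CDH1 were listed at 0 in all 12 libraries. Marker sums that moved with replicate number or line are given beside the results they moved with.

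The following 4 upstream stretches are shown, chosen as examples of both directions among the members called in the shRCOR2 line: MRPS27 and MRPL19 fell with the RCOR2 shRNA, MRPS31 rose, and MRPL30 fell while the gene that starts opposite to it rose. Each holds the 200 bases before the RefSeq start of the gene on build GRCh38.p14, written 5′ to 3′ on the strand of the gene. The capitals mark CCGGAA or its reverse complement TTCCGG, the core letters bound by ETS factors such as GABPA, and ATGGCG or its reverse complement CGCCAT, the core letters bound by YY1. The stretches lie at chr5:72320241-72320440 (minus strand, MRPS27), chr2:75646583-75646782 (plus strand, MRPL19), chr13:40771191-40771390 (minus strand, MRPS31) and chr2:99180984-99181183 (plus strand, MRPL30).
MRPS27: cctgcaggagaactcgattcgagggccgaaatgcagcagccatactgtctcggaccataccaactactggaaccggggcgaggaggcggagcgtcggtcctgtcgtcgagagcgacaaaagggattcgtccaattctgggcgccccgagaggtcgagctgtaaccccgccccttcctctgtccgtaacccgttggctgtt
MRPL19: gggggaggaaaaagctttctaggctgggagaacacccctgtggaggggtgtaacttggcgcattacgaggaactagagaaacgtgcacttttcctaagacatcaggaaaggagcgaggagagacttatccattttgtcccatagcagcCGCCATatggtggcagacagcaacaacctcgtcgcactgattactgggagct
MRPS31: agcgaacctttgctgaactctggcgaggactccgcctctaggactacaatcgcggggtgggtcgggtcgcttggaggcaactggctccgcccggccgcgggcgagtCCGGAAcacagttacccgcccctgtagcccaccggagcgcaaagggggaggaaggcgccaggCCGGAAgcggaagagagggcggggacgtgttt
MRPL30: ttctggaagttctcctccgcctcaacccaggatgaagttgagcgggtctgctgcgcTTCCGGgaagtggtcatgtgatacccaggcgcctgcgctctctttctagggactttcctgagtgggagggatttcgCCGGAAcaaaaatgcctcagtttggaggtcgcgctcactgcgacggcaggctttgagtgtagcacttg
For MRPS27 and MRPL30 the RefSeq start lies inside the gene as the files place it, so the whole MRPS27 stretch and the end of the MRPL30 stretch fall within those gene bounds. As genes, the files place MRPS27 (ENSG00000113048.17) at chr5:72219403-72320646 (minus strand), MRPL19 (ENSG00000115364.14) at chr2:75646783-75690851 (plus strand), MRPS31 (ENSG00000102738.8) at chr13:40729128-40771190 (minus strand) and MRPL30 (ENSG00000185414.20) at chr2:99181152-99199561 (plus strand) of GRCh38. In these letters MRPS31 and MRPL30 each held 2 ETS cores, MRPL19 held 1 YY1 core, and MRPS27 held neither.

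Over longer windows, of 250 bases before to 50 bases after the start, RefSeq gave 85 promoters for 69 of the 78 members. The ETS core CCGGAA stood on either strand in 54.1% of these promoters, against 26.1% of the 15903 promoters of all tested genes and 17.2% of all promoters in the table. The YY1 core ATGGCG stood in 42.4% of them, against 16.0% and 10.7%. The core of NRF1, CGCATGCG, stood in 3.53% of them, against 3.24% and 2.02%, and the E-box CACGTG in 10.6%, against 9.43% and 7.26%. The letters ATGGCG begin with a start codon, and a match is a description of the letters only. The promoters of members had a median GC content of 60.3%, against 64.7% for all tested genes. The members stood on 21 chromosomes, with at most 8 on any of them.

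The members spanned a wide range of levels. The highest mean levels over the 12 libraries were those of MRPL12 (296 TPM), which forms the flexible stalk that contacts translation factors, MRPL51 (283 TPM), MRPS24 (249 TPM), a relative of bacterial protein S3, MRPL3 (244 TPM), MRPL41 (192 TPM) and MRPL33 (183 TPM). The lowest were those of MRPS18B (6.37 TPM), MRPL50 (11.0 TPM), MRPL35 (12.8 TPM) and MRPL17 (13.1 TPM). Over the libraries MRPL12 (214 to 358 TPM) and MRPL51 (207 to 348 TPM) overlapped in their ranges, whereas MRPS18B at its highest (8.14 TPM) was below MRPL50 at its lowest (9.78 TPM). The 3 genes for relatives of bacterial protein S18 differed in level, with MRPS18A, whose protein sits in the large subunit in spite of its name, at 58.0 TPM, MRPS18C at 35.1 TPM and MRPS18B at 6.37 TPM. MRPS30, another protein named for the small subunit that sits in the large one, had a mean of 59.4 TPM. MRPS12, a protein of the decoding centre, had 50.9 TPM, and MRPL58, a peptidyl-tRNA hydrolase built into the large subunit, had 51.7 TPM. MRPS36, which is a subunit of the oxoglutarate dehydrogenase complex and not of the mitochondrial ribosome, was lower at 25.9 TPM.

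**Figure D1:**
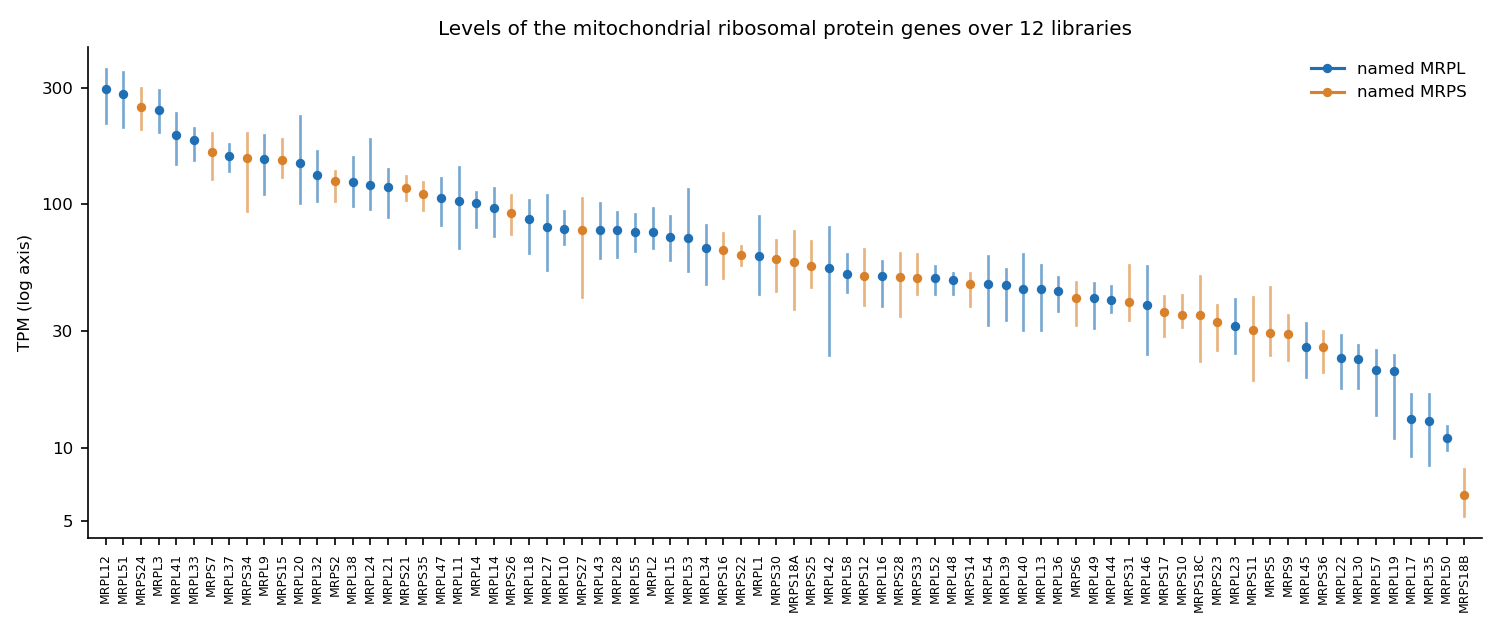
Level of each of the 78 members in TPM on a log axis, ordered by the mean over 12 libraries. Points are means and bars run from the lowest to the highest library; blue members are named MRPL and orange ones MRPS. MRPL12 stands highest at 296 TPM and MRPS18B lowest at 6.37 TPM, and MRPL42 has the widest bar for its level.

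Members were classed mainly by gene number, the lower numbers being counted as having a bacterial counterpart. Among these classes, the 28 MRPL members counted with a counterpart had the highest median level, 78.6 TPM. The 21 MRPL members counted without one had a median of 49.6 TPM. MRPL47 and MRPL55 were among these 21 by their numbers alone, so the split is approximate. The 18 MRPS members counted with one had 48.6 TPM and the 10 counted without one had 60.7 TPM. The highest library of a member exceeded its lowest by a median factor of 1.58. This factor was below 1.5 in 26 members and 2 or more in 14, with the smallest value in MRPS22 (1.20) and the largest in MRPL42 (3.34), MRPS27 (2.55), MRPL46 (2.31) and MRPL20 (2.29). In MRPL42, the lowest library was 1 of the 2 untreated shRCOR2 replicates, which gave 24.0 and 61.3 TPM. The highest were both induced shRCOR1 libraries (80.2 and 77.4 TPM, against 58.3 and 61.0 TPM untreated). The member passed the test in no comparison.

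In shCTRL cells, doxycycline came with no change in any member that passed the test. The summed level of the 78 members went from 6909 and 5671 TPM in replicates 1 and 2 of untreated cells to 6758 and 5341 TPM in induced cells, 0.978 and 0.942 times the untreated level. The median log2 change of the members was −0.08, against −0.02 for all genes tested, and turned to 0.07 without untreated replicate 1 and to 0.08 without induced replicate 2. By limma without a replicate block, 0 of 78 members and 0% of all tested genes were called. In that fit 0 members had an unadjusted p below 0.05, against 938 of the 16842 tested genes. With the replicate number as a block, again 0 members were called, against 0.0594% of tested genes. There 16 of the 78 members had an unadjusted p below 0.05, as did 2642 of the 16842 tested genes. The untreated and induced libraries did not overlap in 14 of the 78 members, against 23.5% of all tested genes. MRPL45, whose protein helps to tie the ribosome to the inner membrane, had the largest estimated rise (26.4 and 22.1 TPM untreated, 30.8 and 28.2 TPM induced; 0.28 ± 0.13, limma adjusted p = 0.912).

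In the shRCOR1 line, the summed level of the members was lower after induction in both replicates, and 1 single member was called without the replicate block and 22 with it, 18 of them lower. The sum went from 6889 and 5993 TPM to 6234 and 5407 TPM, 0.905 and 0.902 times the untreated level in replicates 1 and 2. The estimated change was below 0 in 56 of the 78 members, with a median of −0.11 against 0.04 for all genes tested, and −0.21 to −0.05 when single libraries were left out. In shCTRL cells it was below 0 in 55, with a median of −0.08. The median difference between the 2 changes was −0.07, and −0.24 to 0.08 when single libraries were left out, so its sign is not settled. The induced shRCOR1 libraries were below both untreated ones in 33 members and above both in 7. These 40 members without overlap compare with 53.1% of all tested genes, of which 23.7% were lower and 29.4% higher.

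MRPS27 was the member called in the shRCOR1 line by the unblocked fit. It encodes a pentatricopeptide repeat protein of the small subunit. It was at 80.0 and 78.4 TPM in untreated libraries and at 98.3 and 106 TPM in induced ones, so both induced libraries were above both untreated ones. The rise was 0.36 ± 0.08 (limma adjusted p = 0.032), and 8.62% of all tested genes were called in this comparison. The call was lost when any 1 of the 4 libraries of this line was left out, with rises of 0.31 to 0.41, and its adjusted p over all alternatives tried ran from 0.00651 to 0.203. With the mitochondrially encoded genes taken out of the total, 2 members fell and none rose. The share of all tested genes called under that scaling was not counted.

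With the replicate block, 4 members rose and 18 fell in the shRCOR1 line, 22 of 78, against 27.4% of all tested genes called in either direction and 12.1% called as lower. Of the 18 that fell, 14 were named MRPL and 4 MRPS, where 49 of the 78 members are named MRPL and 29 MRPS. A difference between the subunits was not tested. MRPS27, MRPS31, MRPS30 and MRPL45 were the 4 that rose. The largest falls were in MRPS34, a small subunit protein without a bacterial counterpart, and MRPL27, which reaches towards the peptidyl transferase centre of the large subunit. MRPS34 was at 196 and 161 TPM in untreated libraries and at 117 and 93.4 TPM in induced ones (−0.76 ± 0.09 with the block, limma adjusted p = 0.000788, and 0.13 without it). MRPL27 was at 106 and 84.9 TPM in untreated libraries and at 63.1 and 53.8 TPM in induced ones (−0.69 ± 0.12 with the block, limma adjusted p = 0.00416, and 0.179 without it). In both genes the induced libraries lay below the untreated ones.

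MRPL34, a small protein with a bacterial counterpart, was at 71.6 and 61.6 TPM in untreated libraries and at 52.9 and 47.1 TPM in induced ones in the shRCOR1 line. In shCTRL cells the 3 genes overlapped between untreated and induced libraries. Relative to the shCTRL change, 0 members were called by limma without the block, against 1.28% of all tested genes. In that fit 1 member had an unadjusted p below 0.05, against 2357 of the 16842 tested genes. With the block MRPL27 (−0.66 ± 0.17, limma adjusted p = 0.0451), MRPS34 (−0.57 ± 0.13, limma adjusted p = 0.0287) and MRPL34 (−0.40 ± 0.09, limma adjusted p = 0.0261) were called as lower, 3 of 78 against 10.2% of all tested genes. Leaving out 1 library, which breaks a replicate pair, moved these differences to between −0.96 and −0.37 for MRPL27, −0.91 and −0.23 for MRPS34 and −0.51 and −0.28 for MRPL34, in each case nearest to 0 without induced shCTRL replicate 1. MRPS27, with a difference of 0.25 ± 0.12 from the shCTRL change (limma adjusted p = 0.389), was not called, so its rise is not shown to differ from that with the control shRNA. Epithelial markers moved with this line: the 5 genes summed to 8.23 and 8.91 TPM untreated and 16.8 and 30.4 TPM induced, EPCAM rose (1 of 4 that passed the filter), CDH1 was at 0, and the part of such a shift in the members' values was not tested.

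**Figure D2:**
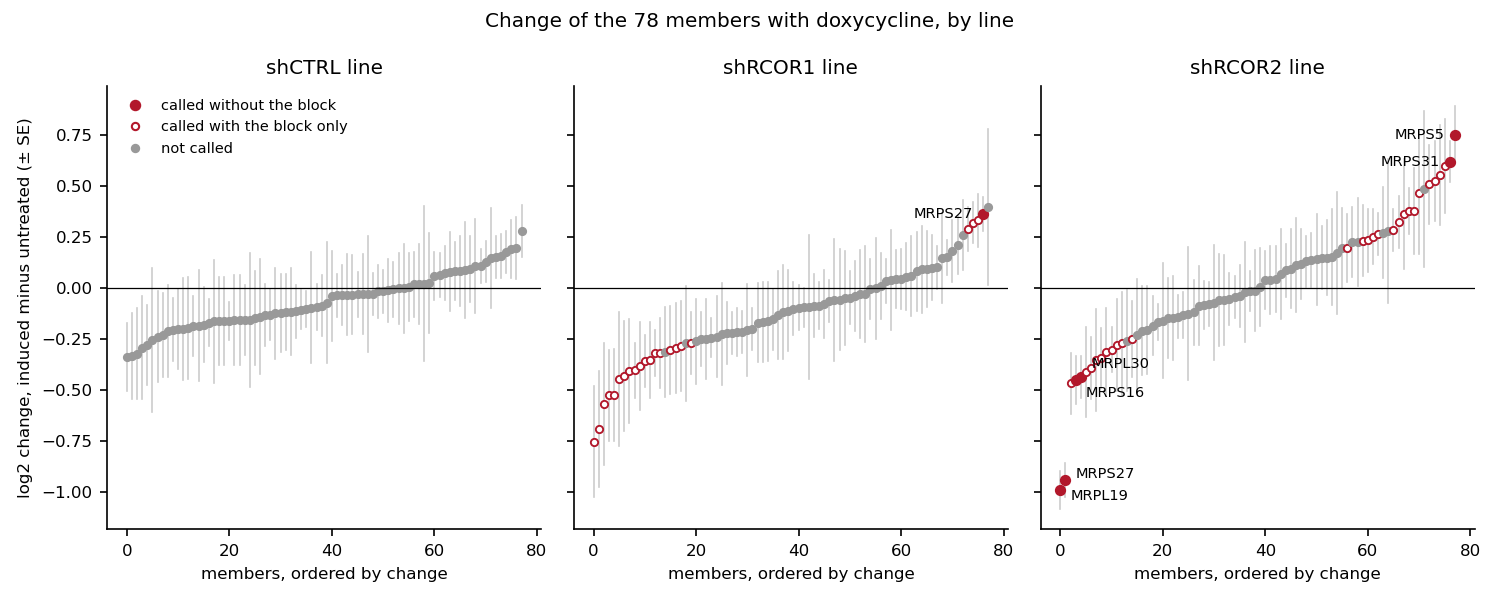
Log2 change of the 78 members (induced minus untreated), ordered within each line; bars are ± 1 SE of the unblocked limma fit. Filled red points were called without the replicate block, open red points only with it, and grey points in neither fit. No point is red in the shCTRL line, 1 is filled in the shRCOR1 line and 6 are filled in the shRCOR2 line, where MRPL19 and MRPS27 stand apart at the lower end.

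In the shRCOR2 line, the summed level of the members was close to that of untreated cells, while single members moved both ways. The sum went from 6992 and 5831 TPM to 7036 and 5926 TPM, 1.01 and 1.02 times the untreated level. The estimated change was above 0 in 39 members and below 0 in 39, and the median was 0.00 on rounding (all genes tested: 0.07). The sign of this median followed the scaling, with 0.06 for FPKM and −0.09 for median-of-ratios scaling, and the library left out, with 0.15 without untreated replicate 1 and −0.09 without induced replicate 1. Without the block 2 members rose and 4 fell, 6 of 78, against 14.3% of all tested genes. From FPKM 4 rose and 2 fell, from median-of-ratios scaling 2 rose and 2 fell, and 2 to 4 members were called when any 1 of the 4 libraries was left out. The share of all tested genes called in these alternatives was not counted. The libraries of the groups did not overlap in 34 members, 17 higher and 17 lower, against 63.3% of all tested genes, 37.6% higher and 25.7% lower.

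The deepest falls in the shRCOR2 line were those of MRPS27 and MRPL19. MRPS27 was at 82.4 and 82.9 TPM in untreated libraries and at 43.6 and 41.5 TPM in induced ones (−0.94 ± 0.08, limma adjusted p = 0.000571). MRPL19, a large subunit protein with a bacterial counterpart, was at 23.9 and 22.8 TPM in untreated libraries and at 11.0 and 11.5 TPM in induced ones (−0.99 ± 0.09, limma adjusted p = 0.000799). For both genes these were the lowest of all 12 libraries, well apart from the other 10. Both calls held under all 11 alternatives, with adjusted p of at most 0.00983 for MRPS27 and 0.0152 for MRPL19.

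MRPS16 and MRPL30, which also have bacterial counterparts, fell less. MRPS16 was at 76.3 and 66.2 TPM in untreated libraries and at 53.5 and 50.0 TPM in induced ones (−0.45 ± 0.12, limma adjusted p = 0.0344). MRPL30 was at 25.5 and 24.4 TPM in untreated libraries and at 18.7 and 17.6 TPM in induced ones (−0.44 ± 0.10, limma adjusted p = 0.0259). The induced libraries of both genes lay below the untreated ones. Both calls ended without any 1 of the 4 libraries of this line, where the changes ran from −0.55 to −0.35 for MRPS16 and from −0.48 to −0.40 for MRPL30, and with FPKM or median-of-ratios scaling.

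The members that rose in the shRCOR2 line were MRPS5 and MRPS31. MRPS5, a small subunit protein with a bacterial counterpart, was at 27.3 and 24.1 TPM in untreated libraries and at 42.1 and 45.6 TPM in induced ones (0.75 ± 0.14, limma adjusted p = 0.0119). MRPS31, without a bacterial counterpart, was at 35.2 and 35.3 TPM in untreated libraries and at 56.0 and 53.4 TPM in induced ones (0.62 ± 0.10, limma adjusted p = 0.0066). In each gene the induced shRCOR2 libraries were the highest of the 12. The MRPS5 call ended without untreated replicate 2 or either induced library (0.66 to 0.84), and the MRPS31 call without untreated replicate 2 or induced replicate 1 (0.59 to 0.65).

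**Figure D3:**
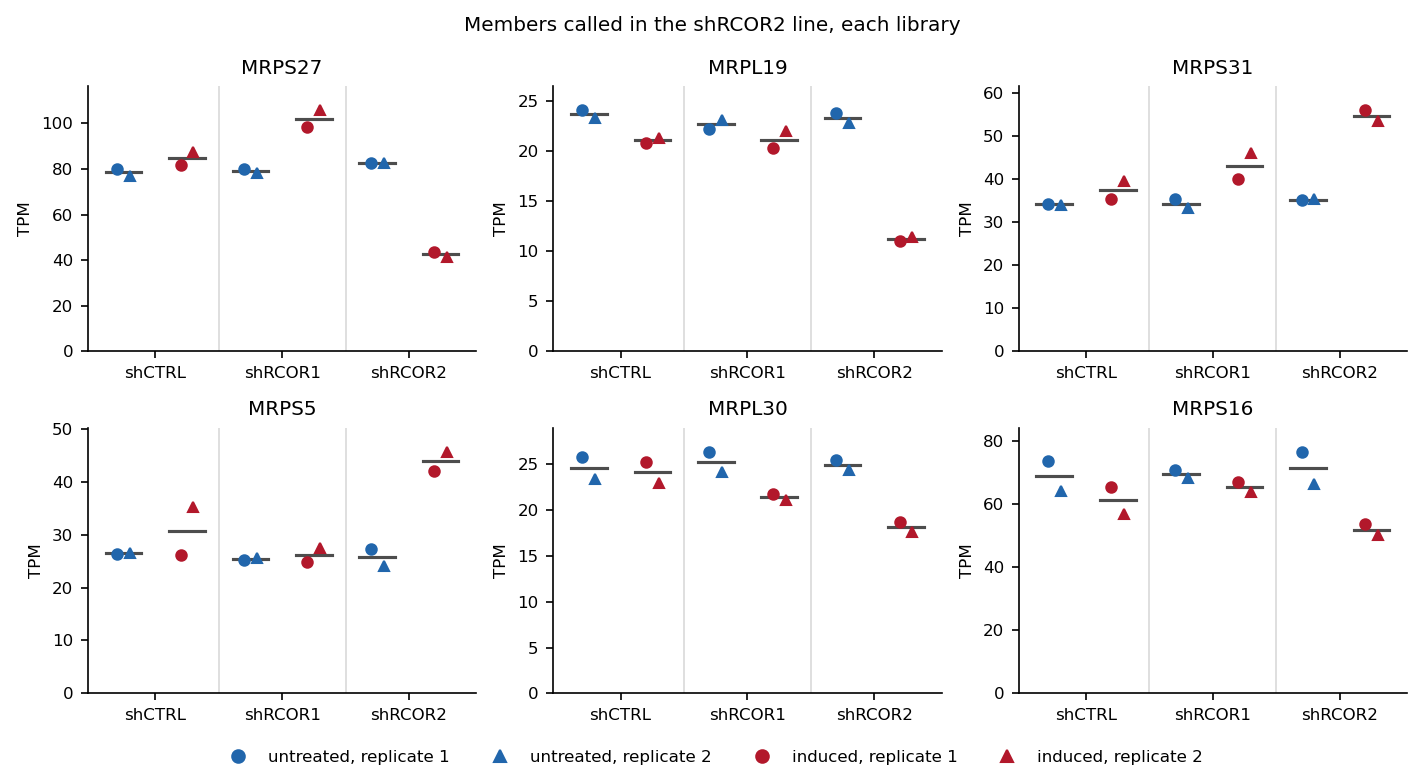
TPM of the 6 members called in the shRCOR2 line, in each of the 12 libraries, by line. Blue points are untreated and red points induced libraries, circles are replicate 1 and triangles replicate 2, and bars are group means; each axis starts at 0. MRPS27 and MRPL19 are lowest in induced shRCOR2 cells, where MRPS31 and MRPS5 are highest.

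With the replicate block, 17 members rose and 14 fell in the shRCOR2 line, 31 of 78, against 36.2% of all tested genes called in either direction and 21.4% called as higher. The rises were led, after MRPS5 and MRPS31, by MRPL53, MRPL1, MRPL20 and MRPL24. MRPL53 was at 77.8 and 60.6 TPM in untreated libraries and at 115 and 94.8 TPM in induced ones (0.60 ± 0.07 with the block, limma adjusted p = 0.000523, and 0.121 without it). MRPL20, a large subunit protein with a bacterial counterpart, was at 158 and 135 TPM in untreated libraries and at 230 and 193 TPM in induced ones (0.53 ± 0.09 with the block, limma adjusted p = 0.00231, and 0.11 without it). In both genes the induced libraries were above the untreated ones and were the highest of the 12. MRPL1, the protein of the mobile stalk next to the tRNA exit site, was at 65.9 and 49.5 TPM in untreated libraries and at 89.8 and 79.1 TPM in induced ones, and its groups did not overlap either.

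The role-defining members behaved unevenly in the shRCOR2 line. With the block MRPS18A (0.38 ± 0.08, limma adjusted p = 0.00854), MRPS18C (0.47 ± 0.12, limma adjusted p = 0.0193) and MRPL58 (0.23 ± 0.07, limma adjusted p = 0.0302) were called as higher. MRPS12 (−0.35 ± 0.09, limma adjusted p = 0.0136) and MRPS30 (−0.30 ± 0.08, limma adjusted p = 0.0144) were called as lower. MRPL12 (−0.07 ± 0.09), MRPS18B (0.09 ± 0.15) and MRPS36 (−0.13 ± 0.10) were called in neither fit. None of these 8 was called without the block.

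Relative to the shCTRL change, MRPS27 and MRPL19 were the members called in the shRCOR2 line without the block, 2 of 78 against 2.09% of all tested genes. Their differences were −1.05 ± 0.12 (limma adjusted p = 0.00758) and −0.83 ± 0.13 (limma adjusted p = 0.0256). In shCTRL cells MRPS27 was at 80.0 and 77.1 TPM in untreated libraries and at 82.0 and 87.5 TPM in induced ones, and MRPL19 was at 24.1 and 23.3 TPM in untreated libraries and at 20.9 and 21.3 TPM in induced ones. The difference in MRPS27 kept its size when any 1 of the 8 libraries was left out (−1.10 to −1.0), but lost its call without any of the 4 shRCOR2 libraries. The difference in MRPL19 (−0.86 to −0.80) also lost its call without either untreated shCTRL library or induced shCTRL replicate 2. With the block 6 members were higher and 6 lower than with the control shRNA, 12 of 78 against 14.7% of all tested genes.

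The 2 knockdown lines share no library, so their changes can be set side by side. The shRCOR2 change was below the shRCOR1 change in MRPS27 (−1.30 ± 0.12, limma adjusted p = 0.0011), MRPL19 (−0.89 ± 0.13, limma adjusted p = 0.00579) and MRPS30 (−0.59 ± 0.16, limma adjusted p = 0.0437). These 3 of 78 members compare with 11.2% of all tested genes. From FPKM 2 members were higher and 2 lower, and the share of all tested genes called there was not counted. In shCTRL cells both induced MRPS30 libraries (65.3 and 67.5 TPM) were above the untreated ones (62.8 and 56.4 TPM). The shRCOR1 change of MRPS30 was not called as different from this in either fit. MRPS30 was at 60.0 and 53.5 TPM in untreated libraries and at 71.4 and 67.4 TPM in induced ones in the shRCOR1 line. In the shRCOR2 line it was at 61.6 and 54.1 TPM untreated and 49.1 and 44.2 TPM induced. Its groups separated in opposite directions in the 2 lines. Its call was lost without any 1 of these 8 libraries (−0.68 to −0.50), while the calls for MRPS27 and MRPL19 held in each case.

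With the block, 20 members had a higher and 7 a lower change in the shRCOR2 line than in the shRCOR1 line, 27 of 78 against 30.4% of all tested genes in either direction and 15.7% higher. Of the 20, 15 were named MRPL, as are 49 of the 78 members. They included MRPL40 (0.79 ± 0.16, limma adjusted p = 0.0071), which was at 52.6 and 41.9 TPM in untreated libraries and at 38.8 and 30.7 TPM in induced ones in the shRCOR1 line. In the shRCOR2 line it was at 51.6 and 38.7 TPM in untreated libraries and at 62.3 and 53.4 TPM in induced ones, so it separated downwards in the former and upwards in the latter. MRPL34 did the same (68.6 and 60.2 TPM untreated, 82.3 and 71.3 TPM induced in the shRCOR2 line; difference 0.65 ± 0.09, limma adjusted p = 0.0012).

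By the blocked calls within lines, 3 members (MRPL13, MRPL51 and MRPS28) fell in both knockdown lines, 3 of the 18 that fell in the shRCOR1 line and of the 14 that fell in the shRCOR2 line. MRPL45 and MRPS31 rose in both, 2 of 4 and of 17. MRPL34, MRPL40 and MRPL43 fell with the RCOR1 shRNA and rose with the RCOR2 shRNA, and MRPS27 and MRPS30 did the reverse. None of these was called in shCTRL cells. There, induced over untreated TPM in replicates 1 and 2 was 0.884 and 0.837 for MRPL13 and 0.869 and 0.759 for MRPS28. It was 0.971 and 0.973 for MRPL51, 1.17 and 1.28 for MRPL45 and 1.03 and 1.16 for MRPS31. For MRPS27 it was 1.03 and 1.14, and for MRPS30 1.04 and 1.20. For MRPL34, MRPL40 and MRPL43 the replicates differed in direction. Shared calls were not counted over all tested genes, so nothing here is read as particular to the members.

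**Figure D4:**
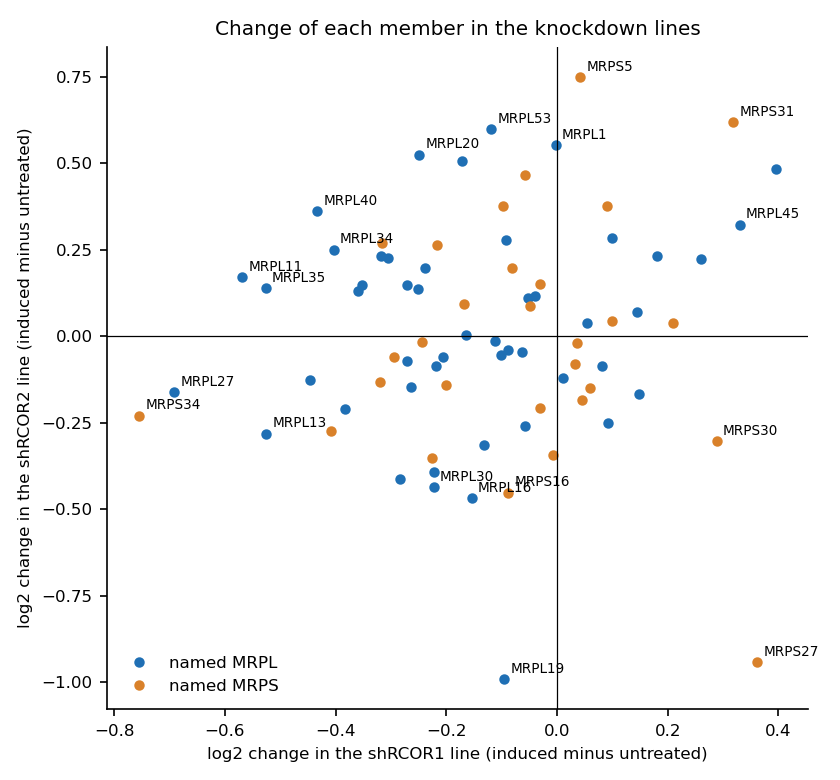
Log2 change (induced minus untreated) of each of the 78 members in the shRCOR1 line (x axis) and in the shRCOR2 line (y axis); blue members are named MRPL and orange ones MRPS. MRPS27 stands alone at the lower right (0.36 and −0.94), MRPL19 lies low at the centre, and MRPL34 and MRPL40 are at the upper left.

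Averaged over the 3 lines, induction came with a rise in 3 members and a fall in 2, 5 of 78 against 9.62% of all tested genes. MRPS31 (0.36 ± 0.06, limma adjusted p = 0.00963), MRPS5 (0.33 ± 0.08, limma adjusted p = 0.0407) and MRPL45 (0.31 ± 0.07, limma adjusted p = 0.0347) rose, and MRPL19 (−0.42 ± 0.05, limma adjusted p = 0.00405) and MRPL30 (−0.23 ± 0.06, limma adjusted p = 0.046) fell. The calls for MRPS31 and MRPL19 held under all 19 alternatives, and those for MRPS5, MRPL45 and MRPL30 were each lost without any of the 4 shRCOR1 libraries and without some others (0.26 to 0.40, 0.26 to 0.36 and −0.25 to −0.21), with adjusted p of up to 0.127. The averages for MRPL19 and MRPS5 came mainly from the shRCOR2 line. MRPS5 had estimates of 0.19 in the shCTRL line, 0.04 in the shRCOR1 line and 0.75 in the shRCOR2 line, and MRPL19 had estimates of −0.16 in the shCTRL line, −0.10 in the shRCOR1 line and −0.99 in the shRCOR2 line. MRPL45 gave the most even changes of the 5, at 0.28, 0.33 and 0.32 in these lines. With the block 9 members rose and 22 fell, 31 of 78, against 33.4% of all tested genes in either direction and 15.0% called as lower.

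Before induction no member was called between lines. Untreated shRCOR1 and untreated shRCOR2 cells each had 0 of 78 members and 0% of all tested genes called by limma against untreated shCTRL cells. In these comparisons 0 members had an unadjusted p below 0.05, against 114 and 123 of the 16842 tested genes. MRPL45 had the lowest estimate in the shRCOR1 line (20.3 and 19.5 TPM against 26.4 and 22.1 TPM; −0.26 ± 0.13).

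The widest pattern in the members lay between the replicates and not between treatments. In every group, replicate 2 had a lower summed level than replicate 1, for example 5671 against 6909 TPM in untreated shCTRL cells and 5926 against 7036 TPM in induced shRCOR2 cells. Over the 6 groups, 55 members were lower and 2 higher in replicate 2 by limma, 57 of 78 against 47.3% of all tested genes in either direction and 14.0% called as lower. The median difference was −0.25, while that of all genes tested was 0.10. In 57 members replicate 2 was below replicate 1 in all 6 groups, against 13.1% of all tested genes.

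The largest falls from replicate 1 to replicate 2 were in MRPL46 (−0.56 ± 0.06, limma adjusted p = 0.000829), MRPL54 (−0.53 ± 0.06, limma adjusted p = 0.000826), MRPL11 (−0.46 ± 0.07, limma adjusted p = 0.00173) and MRPS18C (−0.45 ± 0.07, limma adjusted p = 0.00209). MRPL46, a large subunit protein without a bacterial counterpart, gave 43.7 against 30.9 TPM in untreated shRCOR2 cells and 44.3 against 24.2 TPM in induced shCTRL cells. MRPL11, at the base of the stalk, gave 124 against 84.7 TPM in untreated shCTRL cells. MRPS25, a small subunit protein without a bacterial counterpart, went the other way (0.36 ± 0.06, limma adjusted p = 0.00274), with 45.6 against 63.8 TPM in untreated shCTRL cells and a higher value in replicate 2 in all 6 groups. MRPS10 was also called as higher (0.16 ± 0.06, limma adjusted p = 0.048), a call lost under 8 of 12 alternatives. MRPS27, MRPL19, MRPS31 and MRPS5, which changed most with the RCOR2 shRNA, were not called between replicates (0.01 ± 0.04, 0.02 ± 0.05, 0.03 ± 0.05 and 0.09 ± 0.07).

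Other values moved with the replicate number. Mitochondrial transcripts took 13.3% to 15.9% of TPM in replicate 1 and 16.5% to 21.4% in replicate 2, and were higher in replicate 2 of every group. Without the mitochondrially encoded genes in the total, 49 members were lower and 3 higher in replicate 2, and with median-of-ratios scaling 68 were lower and 1 higher. The share of all tested genes called under these 2 scalings was not counted. The median difference of the members was −0.17 and −0.36 under them, against 0.17 and 0.000605 for all genes. Of the 8 fibroblast and endothelial markers, the 4 that passed the filter were all higher in replicate 2, with sums of 32.9 to 44.1 TPM in replicate 1 and 52.9 to 152 TPM in replicate 2. Of the epithelial markers, 3 of 4 were higher in replicate 2. PECAM1 and CDH1 were at 0 throughout, and the part of these shifts in the members' difference was not tested.

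**Figure D5:**
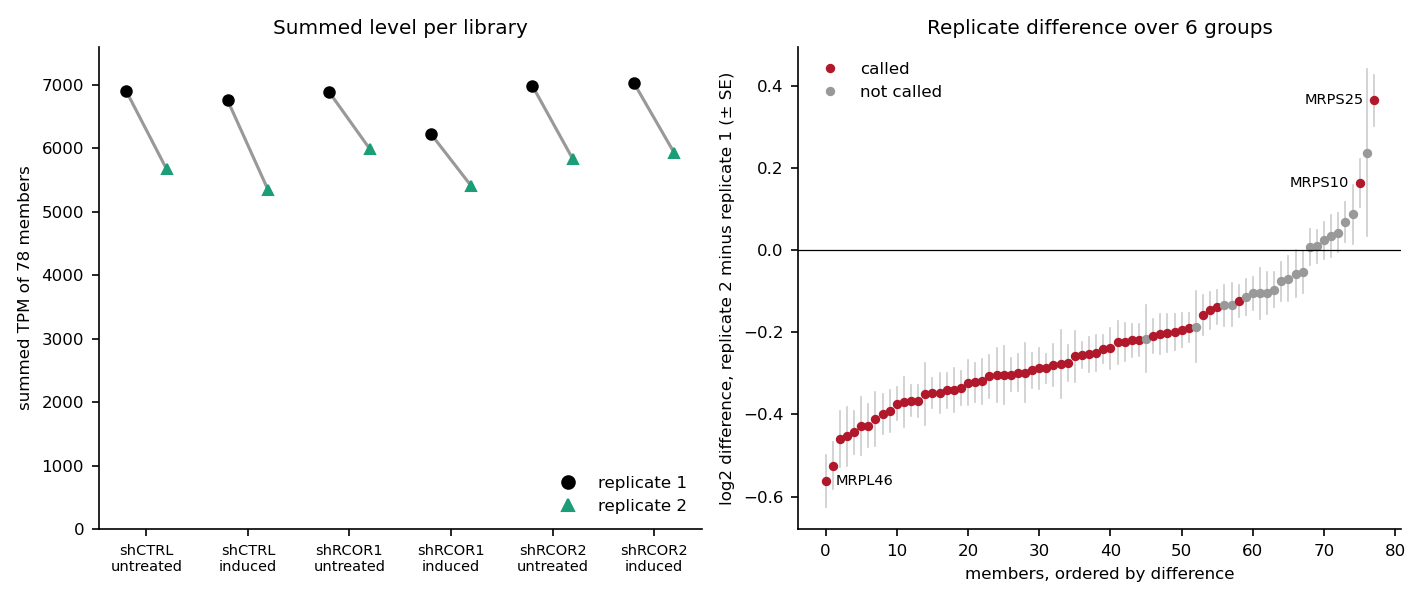
Left: summed TPM of the 78 members in each library by group, with replicate 1 as a black circle and replicate 2 as a green triangle joined by a line; the axis starts at 0. Right: log2 difference of each member between replicates 2 and 1 over the 6 groups (± SE), with called members in red; all 6 pairs on the left fall, and 55 members on the right are called below 0.

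The genes that work with the members were read from lists of fixed names. Changes within a line hold the drug and the shRNA together. Relative to the shCTRL change and without the block, 0 genes of these lists were called in the shRCOR1 line. In the shRCOR2 line RARS2 alone was. With the block, 1 assembly factor was called in the shRCOR1 line (10.2% of all tested genes). In the shRCOR2 line genes of every list but that for transcription and upkeep of mitochondrial DNA were (14.7%). Of the 5 mitochondrial ribosomal proteins with other names (DAP3, PTCD3, CHCHD1, AURKAIP1 and GADD45GIP1), DAP3, a GTP-binding protein of the small subunit, fell in the shRCOR2 line from 234 and 209 TPM to 171 and 147 TPM (−0.48 ± 0.11, limma adjusted p = 0.021). It was also lower there than in the shRCOR1 line (−0.65 ± 0.15, limma adjusted p = 0.0278), as MRPS27 and MRPS30 were. The other 4 were not called in any line without the block. With it, PTCD3 rose (0.41 ± 0.12, limma adjusted p = 0.0297) and CHCHD1 fell (−0.33 ± 0.08, limma adjusted p = 0.0128) in the shRCOR1 line. Of the 2 mitochondrial ribosomal RNAs, MT-RNR1, that of the small subunit, fell in the shRCOR2 line from 3946 and 8125 TPM to 2195 and 3076 TPM (−1.12 ± 0.31, limma adjusted p = 0.0428). MT-RNR2, that of the large subunit, fell over the mean of the 3 lines (−0.70 ± 0.14, limma adjusted p = 0.0184). With the block, both of the 2 RNAs were called as lower in the shRCOR2 line and 1 of them in the shRCOR1 line. Levels of these RNAs depend on how ribosomal RNA and RNA without a poly(A) tail were handled in the libraries, which the labels used here do not give.

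Of 15 translation factors tested, MTIF3, an initiation factor, rose in the shRCOR2 line (24.6 and 23.8 TPM to 44.1 and 39.5 TPM; 0.76 ± 0.16, limma adjusted p = 0.0164), and none was called in the other lines. Of 17 mitochondrial aminoacyl-tRNA synthetases, 3 fell and 1 rose in the shRCOR2 line, against 14.3% of all tested genes called. In the shRCOR1 line 2 fell, against 8.62%. From these counts nothing is read as particular to the list. RARS2, the enzyme for arginine, went from 43.3 and 40.1 TPM to 18.7 and 20.0 TPM with the RCOR2 shRNA (−1.07 ± 0.09, limma adjusted p = 0.000532). It also fell relative to the shCTRL change (−1.0 ± 0.13, limma adjusted p = 0.0125), as MRPS27 and MRPL19 did. YARS2, the enzyme for tyrosine, fell in both the shRCOR1 line (−0.56 ± 0.12, limma adjusted p = 0.0213) and the shRCOR2 line (−0.45 ± 0.12, limma adjusted p = 0.0353). EARS2, the enzyme for glutamate, fell in the same lines (−0.46 ± 0.11, limma adjusted p = 0.0317, and −0.38 ± 0.11, limma adjusted p = 0.0483), and HARS2, the enzyme for histidine, rose in the shRCOR2 line (0.38 ± 0.09, limma adjusted p = 0.0232).

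Of 26 factors for assembly of the mitochondrial ribosome and modification of its RNA, 1 fell in the shRCOR1 line, against 8.62% of all tested genes. In the shRCOR2 line 2 rose and 1 fell, against 14.3%. RCC1L, an assembly factor, fell from 55.2 and 45.1 TPM to 23.7 and 18.9 TPM with the RCOR1 shRNA (−1.20 ± 0.28, limma adjusted p = 0.0331). GTPBP10, a GTPase for the large subunit, rose from 8.26 and 8.52 TPM to 13.6 and 13.9 TPM with the RCOR2 shRNA (0.65 ± 0.13, limma adjusted p = 0.0148). YBEY, an endoribonuclease, also rose (0.49 ± 0.11, limma adjusted p = 0.022), and RPUSD4, a pseudouridine synthase, fell (−0.42 ± 0.12, limma adjusted p = 0.0457). Of 10 genes for transcription and upkeep of mitochondrial DNA, TFAM, which packages that DNA, fell with the RCOR1 shRNA from 51.0 and 51.4 TPM to 28.7 and 28.8 TPM (−0.81 ± 0.21, limma adjusted p = 0.04999, just under the threshold, and 0.00733 with the block). POLRMT, the mitochondrial RNA polymerase, rose with the RCOR2 shRNA (0.34 ± 0.09, limma adjusted p = 0.0364). Of the 13 mRNAs of the mitochondrial genome, 12 were higher in replicate 2. With the block 5 of these mRNAs fell in the shRCOR1 line, and 5 rose and 2 fell in the shRCOR2 line, calls that the unblocked fit did not make.

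The block also raised other counts in the shRCOR2 line: 3 translation factors rose and 2 fell, 2 synthetases rose and 7 fell, 6 assembly factors rose and 2 fell, and 2 transcription genes rose and 2 fell, where 36.2% of all tested genes were called. In the shRCOR1 line these counts were 1 and 2, 1 and 3, 1 and 2, and 2 and 1, where 27.4% of all tested genes were called. From these counts nothing is read as particular to the lists. In the shCTRL line the block called none in these lists.

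Some members have near copies or overlapping neighbours, so that their reads may be shared. MRPS31P5, a pseudogene of MRPS31, rose with the RCOR2 shRNA from 9.23 and 9.97 TPM to 17.4 and 19.0 TPM (0.86 ± 0.16, limma adjusted p = 0.0113), whereas MRPS31P4 was not called (−0.02 ± 0.15, limma adjusted p = 0.954). MRPL45P2, a pseudogene of MRPL45, rose from 18.8 and 18.8 TPM to 44.1 and 41.6 TPM (1.15 ± 0.15, limma adjusted p = 0.0028). The values of MRPS31 and MRPL45 are therefore uncertain. In the files 35 of the 78 members overlap another tested gene, 13 of them on the same strand, including MRPL19, which overlaps GCFC2 and AC005034.5, MRPS27, which overlaps PTCD2 on the other strand, and MRPS5, which overlaps ZNF514. MRPL20 overlaps MRPL20-AS1 on the other strand, which went from 40.3 and 36.2 TPM to 58.5 and 53.5 TPM with the RCOR2 shRNA (0.54 ± 0.12 with the block, limma adjusted p = 0.0092, and 0.0898 without it), close to the MRPL20 change. As the strand setting of the counting is not stated, the reads of this pair cannot be told apart, and the MRPL20 value is uncertain.

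For 29 of the 78 members (37.2%) a tested gene on the opposite strand starts within 1000 bases, against 21.2% of all tested genes. These neighbours did not always move with the member. MITD1 starts 94 bases from MRPL30 and rose with the RCOR2 shRNA (0.67 ± 0.12, limma adjusted p = 0.00886), where MRPL30 fell. PTCD2 starts 279 bases from MRPS27 and was not called (−0.14 ± 0.14, limma adjusted p = 0.576). SARS2, a mitochondrial synthetase gene, starts 181 bases from MRPS12, and neither was called in this line without the block. MRPL46 and MRPS11 are a pair of members that start 63 bases apart, and with the RCOR2 shRNA their estimates were 0.28 and 0.27, not called.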

How the data were processed

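RNA libraries were made with a directional NEBNext Ultra II kit, per the labels' protocols. Trim Galore 0.6.7, HISAT2 2.2.1 and StringTie 2.1.7 with GRCh38/hg38 were used, per the submitters' processing notes; the annotation release, the strand setting, the handling of reads with several alignments and any poly(A) selection are not stated in those notes or labels. The authors' deposited TPM per gene, which have an equal total in every library, were the main values. The authors' deposited FPKM served as an alternative, and the deposited coverage signal only for relative depth. The files hold no read counts, so no counting intervals are given, and the 2 libraries per group limit the precision.

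The 16842 genes that reached a TPM of 1 in 2 or more libraries were fitted as log2(TPM + 1) with limma 3.58.1 (R 4.3.3), with 6 group means over 12 libraries and a variance trend; fold changes are on this scale, which understates changes of low genes. Called means an adjusted p under 0.05 (Benjamini-Hochberg, over those 16842 genes). The script was tested on simulated data. Comparisons were induced with untreated cells line by line, the differences between these changes, their mean, untreated lines against untreated shCTRL, and replicate 2 against 1 with groups as a term. Replicate deviations from the group mean correlated in all 15 pairs of groups (0.37 to 0.75 across genes), so the replicate numbers pair the samples. The labels state no block. The unblocked fit and the fits that leave out single libraries do not use this pairing, so a call lost in them may reflect the replicate difference left in the spread. Blocked values stand beside the unblocked ones for many, but not all, of the calls and counts that they changed. Alternatives were FPKM, a pseudocount of 0.1, no filter, median-of-ratios scaling, TPM without the mitochondrially encoded genes, no variance trend, the replicate block and leaving out each library. Named are all called members up to 8 per comparison, otherwise the 4 largest rises and falls; the 6 highest and 4 lowest members; and 8 members with a defining role. Other members named for their values (MRPL53, MRPL20, MRPL1, MRPL24, MRPL40, MRPL42, MRPS22 and those in shared blocked calls) were chosen after their values were seen. Of other lists, up to 3 called genes per comparison are named. The members and lists were chosen with earlier results of these data known. Promoters are from RefSeq (GRCh38.p14). Python 3.11.15, pandas 2.3.3, numpy 2.4.6 and matplotlib 3.10.9 were used.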

Additional observations from a re-analysis of the deposited data

Results flagged for a closer look

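The change with doxycycline differed between lines by a test of the difference itself in 3 members without the replicate block. In that fit 11.2% of all tested genes differed between the shRCOR2 and shRCOR1 lines and 2.09% between the shRCOR2 and shCTRL lines. With the block, 27 of 78 members differed between the shRCOR2 and shRCOR1 lines, against 30.4% of all tested genes. Between the shRCOR2 and shCTRL lines 12 of 78 differed, against 14.7%. In MRPS27 the shRCOR2 change was lower than the shCTRL change by a log2 difference of −1.05 ± 0.12 (SE; limma adjusted p = 0.00758) and lower than the shRCOR1 change by −1.30 ± 0.12 (limma adjusted p = 0.0011), and the MRPS27 libraries ran from 41.5 TPM in induced shRCOR2 cells to 106 TPM in induced shRCOR1 cells. In MRPL19 the corresponding differences were −0.83 ± 0.13 (limma adjusted p = 0.0256) and −0.89 ± 0.13 (limma adjusted p = 0.00579). In MRPS30 the shRCOR2 change was lower than the shRCOR1 change by −0.59 ± 0.16 (limma adjusted p = 0.0437), a call lost under 12 of 15 alternatives. No group holds 4 libraries, so no single library could be tested as standing apart from its group.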

How the results depend on the processing

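No member's change called without the block, and none of the 3 called relative to shCTRL in the shRCOR1 line with it, reversed its direction under the alternatives tried; estimates of named members that were not called, several of them near 0 (MRPS18B and MRPL12 in the shRCOR2 line, for example), were not followed in this way. The replicate block made the largest difference in counts of called members: 22 against 1 in the shRCOR1 line, 31 against 6 in the shRCOR2 line, 3 against 0 for shRCOR1 minus shCTRL, 12 against 2 for shRCOR2 minus shCTRL, 27 against 3 for shRCOR2 minus shRCOR1 and 31 against 5 for the mean of the 3 lines. The shares of all tested genes called with the block were, in this order, 27.4%, 36.2%, 10.2%, 14.7%, 30.4% and 33.4%. In the shCTRL line the block called 0 members, as did the fit without it. Shares of all tested genes were counted only for the fits with and without the block, so counts under other alternatives describe the members alone. In the shRCOR1 line 0 members were called with median-of-ratios scaling or without the variance trend and 2 without the mitochondrially encoded genes. For the mean of the 3 lines 3 were called with no filter, with median-of-ratios scaling and without the variance trend. Leaving out each library in turn gave 0 to 0 called members in the shRCOR1 line, 2 to 4 in the shRCOR2 line, 0 to 2 for shRCOR2 minus shCTRL, 2 to 2 for shRCOR2 minus shRCOR1 and 2 to 8 for the mean of the 3 lines; the lone library left in a group is then assumed to vary like the other groups. In the replicate comparison, leaving out each group gave 52 to 57. Among single members and medians of the members, 382 values kept their direction and side of the threshold or stayed within their spread, 94 lost a call, 3 gained one and 16 medians moved further. A median within 0.122 of its main value counted as within its spread, so some of those medians changed sign. Of the counts of called members under the alternatives, 94 stayed the same or close and 37 moved further. Read depth is not in the files, so what it limits could not be computed.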
